A study of Mus musculus with 24 samples.

Results

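Translation initiation factors are the proteins that bring the initiator tRNA, the small ribosomal subunit and the mRNA together at the start codon. Their transcripts were taken here as all genes of the RNA-seq table whose symbol begins with Eif1 to Eif6, without the Eif2ak kinases and without Eif4e1b. The rule found 51 of 16572 gene names, and all 51 passed the filter of a mean of at least 1 RPM (reads scaled to the depth of a column) over the 2 columns. The rule used names and no measured value.

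The study grew mouse oocytes in culture and compared DNA methylation and transcripts between 5% O2 and 20% O2. RNA-seq was done on oocytes of class IV, the largest sizes, which the labels give as 60 to 70 μm in both conditions, whereas the study's methods describe a range of diameters that lies lower for 20% O2 than for 5% O2. The oocytes came from ovaries of mice 7 days old, of the strain labelled C57BL/6 Barb, which the study's methods describe as a C57 Black6 background bred with SV129. No mutation or drug is labelled for either condition. IV 5% O2 oocytes were grown for 9 days and IV 20% O2 oocytes for 14 days, and the medium was renewed more often under 5% O2. Oxygen, culture time, medium change and any difference in size therefore cannot be told apart. Oocytes were grown without follicles, on a culture that began with other cells of the dissociated ovary, and each library was made from pooled oocytes. Total RNA was depleted of ribosomal RNA before library preparation.

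A growing oocyte builds up the ribosomes, mRNA and translation factors that it will use after transcription has stopped. In general, initiation begins when eIF2, loaded with GTP and the initiator tRNA, joins the small subunit together with eIF1, eIF1A, eIF3 and eIF5. The eIF4F complex, made of the cap-binding eIF4E, the scaffold eIF4G and the helicase eIF4A, then recruits this assembly to the capped end of an mRNA. The subunit scans to the start codon, eIF5 promotes GTP hydrolysis by eIF2, and eIF5B joins the large subunit. Control acts mainly at the recycling of eIF2 by eIF2B, which phosphorylated eIF2 blocks, and at eIF4E, which the 4E-BP proteins hold when mTOR signalling is low.

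The deposited table holds 1 value per gene and condition, although the labels give 2 libraries per condition. There is accordingly no SD, no test and no replicate check for any value below, and a difference describes these libraries. The values are listed as log2 RPKM, but once they were taken out of log2, 99.98% of those in each column were whole multiples of 1 read, within 0.1 reads, with the same step for every gene. They were therefore read as RPM without a correction for length. The depth was 132185258 reads for IV 5% O2 and 40875359 reads for IV 20% O2, which is 3.23 times lower, so the IV 20% O2 value sets the precision of each comparison. Up to 3 reads remain possible behind a count of 0, which is 0.0227 RPM for IV 5% O2 and 0.0734 RPM for IV 20% O2. Differences are log2(RPM + 1) of IV 5% O2 minus IV 20% O2, a scale on which the change of a low gene is understated. Each interval is a 95% Clopper-Pearson interval (exact) for the log2 ratio of reads, without the added 1, and covers counting error only. Levels of single genes were set against each other after division by exonic length and rescaling to a fixed column sum (the length-corrected level), and shares of a family's reads are given beside them where the order depends on it.

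The labelled cell type was checked with marker genes. All 6 oocyte markers were detected, between 133 and 2346 RPM under 5% O2 and between 120.3 and 2805 RPM under 20% O2, with Gdf9 highest in both, and 2 of the 6 were higher in IV 5% O2, where the list summed to 5242 RPM against 6403 RPM. Of 7 granulosa markers 5 were listed in the table, at 0 to 18.7 RPM and 0 to 17.6 RPM, and 4 of the 5 were higher in IV 5% O2, where they summed to 31.2 RPM against 24.2 RPM. Fshr had 0 reads in IV 5% O2 and Inha had 0 reads in IV 20% O2. Of 12 theca and stroma markers 8 were listed, and all 8 were higher in IV 5% O2, where they summed to 38.4 RPM against 4.97 RPM. Col1a2, Dcn and Vim had 0 reads in IV 20% O2. The part of these other cells in the differences below was not tested. In bulk RNA, fewer cells of a type and less RNA per cell cannot be told apart.

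Most initiation factor transcripts lay within 2-fold of each other in the 2 columns. Of the 51 genes, 43 (84.3%) were within 2-fold, against 72.1% of all 14704 genes tested. At least 2-fold higher in IV 5% O2 were 5 genes (9.80%), against 18.7% of all genes tested, and at least 2-fold lower were 3 genes (5.88%), against 9.22%. The 5 higher genes were Eif2d, Eif3d, Eif4a3, Eif4a3l2 and Eif3h, and the 3 lower genes were Eif3j2, Eif1 and Eif4ebp2. Of the 11678 genes at or above the mean level of the lowest factor, a background closer in level, 74.9% lay within 2-fold. In that set 16.4% were higher and 8.68% lower. Its median level (29.3 and 26.3 RPM) was still below that of the factors (86.0 and 75.6 RPM).

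The columns as deposited are not centred on each other. Over all genes tested the median log2 difference stood at 0.26, and it moved to -0.04 when the columns were scaled by their median ratio and to 0.06 under quantile normalization. The median of the 51 factors was 0.10, which is -0.16 once the all-gene median was subtracted. Of the factors 22 lay above the median gene and 29 below it. Their differences ran from -3.21 to 1.38, with quartiles at -0.30 and 0.56, whereas the quartiles of all genes tested were -0.31 and 0.82. The middle of the factors' distribution was thus narrower, by 0.86 against 1.13 between quartiles, or against 1.05 for the genes at or above the lowest factor's mean level. Under every alternative that kept the factor (Eif4ebp3 and Eif4a3l1 did not reach a mean of 5 RPM), 19 factors kept a difference above 0 and 21 a difference below 0, and the sign of the other 11 depended on the setting.

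**Figure D1:**
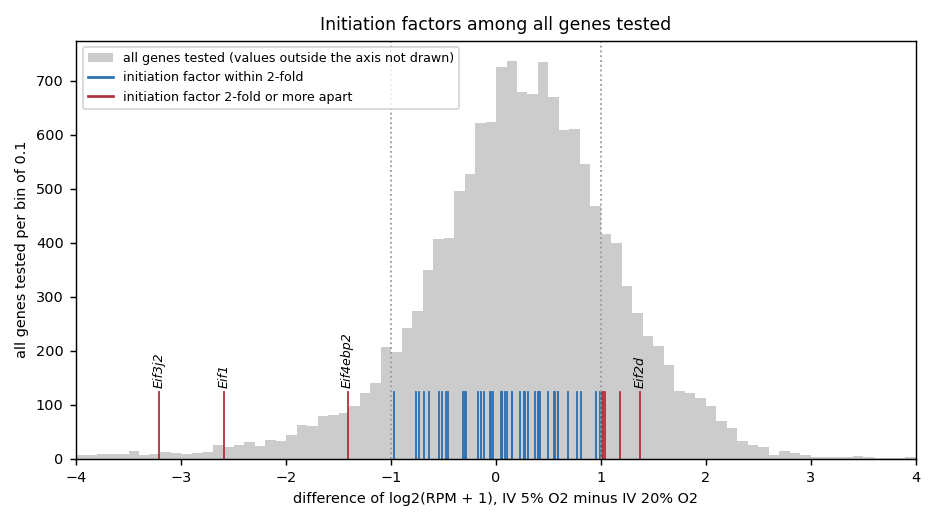
Difference of log2(RPM + 1), IV 5% O2 minus IV 20% O2, on the x axis, with the number of all genes tested per bin of 0.1 as grey bars and each of the 51 initiation factors as a vertical line (red if at least 2-fold apart, blue otherwise). The factors gather between the dotted 2-fold limits, with Eif3j2 and Eif1 far to the left and Eif2d the furthest to the right.

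Counting error was small beside most of these differences. For 48 of the 51 factors the interval of the ratio excluded 0, the exceptions being Eif3b, Eif4a3l1 and Eif4e2. The whole interval lay past 2-fold for Eif2d and Eif3d among the higher genes and for all 3 lower genes. Close to the 2-fold limit, Eif3h (1.01), Eif4a3l2 (1.02) and Eif4a3 (1.04) lay just past it, and Eif6 (0.99), Eif3j1 (-0.98) and Eif4e3 (0.95) just within it.

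Their median level, without correction for length, was 86.0 RPM under 5% O2 and 75.6 RPM under 20% O2, where the median of all genes tested was 18.2 and 16.3 RPM. Their summed level was 6434 and 5734 RPM. On the length-corrected scale the median factor stood at 103 in both columns, against 20.8 and 19.5 for all genes tested. The highest means on that scale were those of Eif1b, Eif4a1, Eif6 (427 and 225), Eif5a (347 and 276) and Eif2b1, and the lowest those of Eif5a2, Eif4e2, Eif4a3l1, Eif4g3 and Eif4ebp3. Across the 51 factors Pearson's r between the columns was 0.873 on log2(RPM + 1), and it was 0.884 across all genes tested with an exonic length, both as descriptions across genes that are not replicates.

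**Figure D2:**
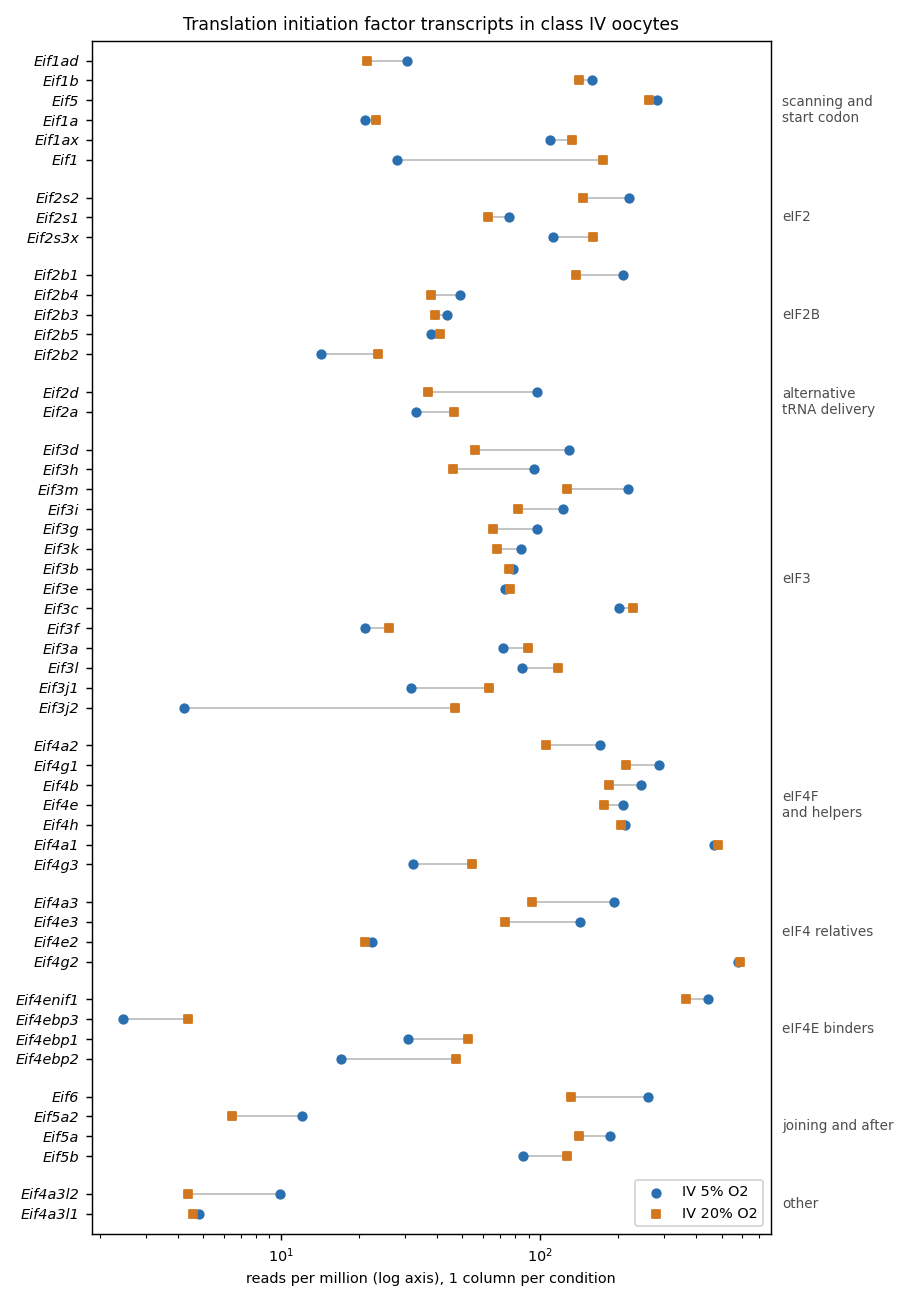
Level of each initiation factor in RPM on a log axis, by role, with IV 5% O2 as blue circles and IV 20% O2 as orange squares, 1 column per condition and hence no error bar. The widest gaps between circle and square are those of Eif3j2 and Eif1, while Eif4g2 and Eif4a1 nearly coincide.

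The upstream sequence of the factors at least 2-fold apart is shown because oxygen differed between the cultures and the hypoxia-inducible factors bind a short core, ACGTG or GCGTG. The sequences are the 250 bases before the RefSeq start on GRCm38.p6, 5′ to 3′ on the gene's own strand, for the 5 such factors shown here, with each ACGTG or GCGTG on either strand (CACGT or CACGC when on the other strand) in capitals. The windows are chr11:100319699-100319948 (plus strand) for Eif1, chr10:61452670-61452919 (minus) for Eif4ebp2, chr11:119300044-119300293 (minus) for Eif4a3, chr15:77970825-77971074 (minus) for Eif3d and chr1:131152957-131153206 (plus) for Eif2d. The starts of the deposited gene models lie within 64 bases of the ends of these windows.
Eif1: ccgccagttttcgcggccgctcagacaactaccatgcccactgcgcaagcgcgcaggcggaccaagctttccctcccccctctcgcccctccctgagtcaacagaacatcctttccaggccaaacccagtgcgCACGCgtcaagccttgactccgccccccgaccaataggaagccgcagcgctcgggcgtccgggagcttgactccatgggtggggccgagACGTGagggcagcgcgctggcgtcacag
Eif4ebp2: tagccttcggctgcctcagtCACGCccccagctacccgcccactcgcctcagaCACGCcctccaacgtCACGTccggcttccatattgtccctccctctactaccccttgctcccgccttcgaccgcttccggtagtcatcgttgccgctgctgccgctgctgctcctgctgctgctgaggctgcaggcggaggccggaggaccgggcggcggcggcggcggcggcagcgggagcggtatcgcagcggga
Eif4a3: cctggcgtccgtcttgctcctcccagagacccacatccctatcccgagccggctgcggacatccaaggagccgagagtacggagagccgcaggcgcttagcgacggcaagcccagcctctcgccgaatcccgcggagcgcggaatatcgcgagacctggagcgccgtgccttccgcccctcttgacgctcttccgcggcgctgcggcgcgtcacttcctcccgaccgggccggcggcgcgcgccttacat
Eif3d: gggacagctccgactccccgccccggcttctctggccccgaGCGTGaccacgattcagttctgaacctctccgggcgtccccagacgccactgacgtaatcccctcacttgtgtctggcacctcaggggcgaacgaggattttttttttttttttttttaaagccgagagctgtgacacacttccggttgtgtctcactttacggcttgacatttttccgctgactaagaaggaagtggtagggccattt
Eif2d: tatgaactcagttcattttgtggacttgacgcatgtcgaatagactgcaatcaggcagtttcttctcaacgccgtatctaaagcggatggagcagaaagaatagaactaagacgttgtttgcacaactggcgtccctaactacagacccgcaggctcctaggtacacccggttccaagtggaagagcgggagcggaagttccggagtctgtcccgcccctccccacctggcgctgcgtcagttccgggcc

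The windows of the 2 lower factors shown, Eif1 and Eif4ebp2, each held both motifs, with 1 ACGTG and 1 GCGTG before Eif1 and 1 ACGTG and 2 GCGTG before Eif4ebp2. Among the 3 higher factors shown, Eif3d had 1 GCGTG and Eif4a3 and Eif2d had neither. A window was found for 39 of the 51 factors, and 26 of them (66.7%) held at least 1 of the motifs, against 55.3% of the 10831 genes tested that had a window. ACGTG alone was present before 16 factors (41.0%), against 21.4% of genes, and GCGTG before 21 (53.8%), against 44.5%. The palindrome CACGTG, the E-box of other basic helix-loop-helix factors, counts as ACGTG on both strands and was present before 7 factors (17.9%), against 8.51% of genes. The median difference was -0.00 for the 26 factors with a motif and 0.40 for the 13 without. The same split was not made over all genes with a window, so it cannot be read as particular to the factors. Any link of the motifs to oxygen was not tested. A match of letters is a description of the window and not a binding site, and no match says nothing about the factor.

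Scanning and start codon choice rest on eIF1 and eIF1A, which hold the ribosome open while it scans, and on eIF5, the GTPase-activating protein of eIF2. Of 6 genes in this group 1 was lower and 0 were higher. The lower gene was Eif1 (chr11:100319885-100322096, plus strand), with 28.0 RPM under 5% O2 and 174 RPM under 20% O2 (3705 and 7101 reads). Its level was 6.20-fold higher in IV 20% O2, a difference of -2.59 (interval of the ratio -2.69 to -2.57), or -2.85 once the all-gene median was subtracted, and 212 of the 14704 genes tested had a lower difference. Its paralogue Eif1b (chr9:120492232-120495330, plus strand), whose protein is closely related, had 158 RPM and 141 RPM. The difference of Eif1b was 0.15, and its sign turned with the scaling (-0.16 under median-ratio scaling).

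The 2 eIF1 genes therefore made up their family in different proportions. On the length-corrected scale Eif1 gave 8.71% of the family in IV 5% O2 and 39.7% in IV 20% O2, and Eif1b gave the rest, 91.3% and 60.3%. Without the length correction Eif1 had 15.1% and 55.1% of the family's reads, so its share was higher in IV 20% O2 on either scale, but which gene led there depended on the correction. Eif1b was the most abundant of all factors on that scale, with 621 in IV 5% O2 and 585 in IV 20% O2. The ratio of Eif1b to Eif1 was 10.5 and 1.52, and a ratio within a column does not change when the whole column is rescaled by 1 factor.

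The other scanning genes differed less. Eif5 had 282 RPM and 263 RPM, a difference of 0.10 that turned to -0.22 under median-ratio scaling. The X-linked Eif1ax had 109 RPM and 133 RPM (-0.29), and Eif1a, its copy on chromosome 18, had 21.0 RPM and 23.2 RPM (-0.14). Eif1ax supplied 80.4% of the length-corrected eIF1A level in IV 5% O2 and 81.9% in IV 20% O2, so this family kept its proportions to within a few percentage points. Eif1ad, which encodes a protein with an eIF1A-like domain, had 30.6 RPM and 21.5 RPM (0.49).

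eIF2 carries the initiator tRNA, and its α subunit, encoded by Eif2s1, is the one that the eIF2 kinases phosphorylate. None of its 3 listed genes was 2-fold apart. Eif2s1 had 75.5 RPM under 5% O2 and 62.6 RPM under 20% O2, a difference of 0.27 that turned to -0.05 under median-ratio scaling. The β subunit gene Eif2s2 was higher in IV 5% O2, at 220.2 RPM against 146 RPM (0.59). The γ subunit gene Eif2s3x lay the other way, at 111 RPM against 159.8 RPM (-0.52).

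The subunits of this equimolar complex thus stood in different order in the columns. Eif2s2 was the highest on the length-corrected scale in IV 5% O2 at 144, and Eif2s3x in IV 20% O2 at 195. Eif2s1 was the lowest in both, at 67.6 and 58.8. The ratio of Eif2s2 to Eif2s3x was 1.11 in IV 5% O2 and 0.515 in IV 20% O2. Exonic windows of 100 bases were found at a second place in the genome for 87.0% of Eif2s3x, the highest share of any factor, and how the authors' alignment placed such reads is not given in the sources used here.

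eIF2B is the exchange factor that reloads eIF2 with GTP, with a catalytic ε subunit (Eif2b5) and γ subunit (Eif2b3) and a regulatory core of α, β and δ (Eif2b1, Eif2b2 and Eif2b4). None of the 5 genes was 2-fold apart, and their median difference was 0.15. Eif2b1 had 208 RPM under 5% O2 and 138 RPM under 20% O2 (0.59), and Eif2b4 had 49.1 RPM and 37.8 RPM (0.37). Eif2b2 had the largest difference of the group and was lower in IV 5% O2, at 14.3 RPM against 23.5 RPM (-0.69, 1885 and 962 reads). The core of the complex thus held the genes furthest apart in both directions.

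Of the catalytic subunits, Eif2b5 had 37.9 RPM and 41.1 RPM (-0.11, or -0.43 under median-ratio scaling), and Eif2b3 had 43.8 RPM and 39.3 RPM (0.15, or -0.16 under median-ratio scaling). On the length-corrected scale Eif2b1 was the highest subunit, at 357 and 248, and Eif2b3 the lowest, at 29.8 and 28.0. In RPM Eif2b1 was also the highest, but Eif2b2 was the lowest in both columns (14.3 and 23.5). Which subunit was lowest thus depended on the length correction. The span within the complex on the length-corrected scale was 12.0-fold in IV 5% O2 and 8.86-fold in IV 20% O2. The ratio of Eif2b2 to Eif2b1 was 0.0938 and 0.234.

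Eif2d and Eif2a encode proteins that can deliver tRNA to the ribosome apart from eIF2, and neither is a subunit of eIF2 despite the names. Eif2d (chr1:131153181-131187658, plus strand) had the largest positive difference of all factors. It had 96.9 RPM under 5% O2 and 36.7 RPM under 20% O2 (12807 and 1501 reads), which is 2.64-fold, a difference of 1.38 (counting interval 1.32 to 1.48), or 1.12 once the all-gene median was subtracted. Among all genes tested 1414 had a higher difference. Eif2d was the only factor at least 2-fold higher under each of the alternatives run. Eif2a was lower in IV 5% O2, at 33.1 RPM against 46.6 RPM (-0.48).

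Denr and Mcts1 encode a pair of proteins that together resemble eIF2D and act in reinitiation. Denr had 21.9 RPM and 18.5 RPM (0.23), and Mcts1 had 4.13 RPM and 8.78 RPM (-0.93). The gene for the single-chain eIF2D was thus higher in IV 5% O2, and neither gene of the pair was 2-fold apart on the log2(RPM + 1) scale.

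eIF3 is the largest of the factors, a scaffold of many subunits that binds the small ribosomal subunit and eIF4G. Of its 14 genes 2 were higher and 1 was lower, 7 differences were above 0 and 7 below, and the median was -0.01. Eif3d (chr15:77958998-77970813, minus strand), whose protein can itself bind the cap of some mRNAs, had 128 RPM under 5% O2 and 56.0 RPM under 20% O2 (16984 and 2291 reads). The difference of Eif3d was 1.18 (interval 1.13 to 1.26), or 0.92 once the all-gene median was subtracted. Eif3h (chr15:51786558-51865523, minus strand), with a subunit of the MPN fold, had 94.2 RPM and 46.1 RPM (12446 and 1886 reads), a difference of 1.01 (counting interval 0.96 to 1.10), or 0.76 once the all-gene median was subtracted.

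Both were within 2-fold under median-ratio scaling and under quantile normalization, and Eif3h also with a pseudocount of 5 RPM or a correction for length. Eif3d shares 43.3% of its exonic bases with an annotated gene on the other strand, Gm17638, and although the libraries keep strand, the use of strand in counting is not given in the sources used here. Eif3m had 218 RPM and 127 RPM (0.78), Eif3i 122 RPM and 82.2 RPM (0.57) and Eif3g 96.7 RPM and 65.5 RPM (0.56). Eif3g encodes an RNA-binding subunit and Eif3i a WD-repeat subunit.

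The other subunits lay closer in the 2 columns. Eif3a, the largest subunit, had 71.7 RPM and 89.3 RPM (-0.31), and Eif3c had 201 RPM and 227 RPM (-0.17). Eif3b had 78.1 RPM and 75.6 RPM (0.05, turning to -0.27 under median-ratio scaling). Eif3e had 73.1 RPM and 76.2 RPM (-0.06), Eif3k 83.9 RPM and 67.8 RPM (0.30, turning to -0.01 under median-ratio scaling), Eif3l 84.6 RPM and 117 RPM (-0.46) and Eif3f 21.0 RPM and 26.0 RPM (-0.29). Eif3e, Eif3k, Eif3l, Eif3a, Eif3c and Eif3m encode subunits of the same PCI fold.

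On the length-corrected scale the 12 subunit genes other than the Eif3j pair ran from 32.2 (Eif3f) to 373 (Eif3m) in IV 5% O2, with a median of 126. In IV 20% O2 they ran from 41.9 (Eif3f) to 301 (Eif3c), with a median of 111. The span was 11.6-fold and 7.18-fold. Transcripts of 1 complex were hence not at equal levels in either column.

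The loosely bound j subunit, which helps the complex onto the ribosome, is encoded in the mouse by the paired genes Eif3j1 and Eif3j2. Eif3j2 (chr18:43475418-43477796, minus strand) had the largest difference of all factors, with 4.20 RPM under 5% O2 and 47.0 RPM under 20% O2 (555 and 1921 reads). It was 11.2-fold higher in IV 20% O2, a log2(RPM + 1) difference of -3.21, or -3.46 once the all-gene median was subtracted, with an interval of -3.62 to -3.35 on the ratio of reads. Of all genes tested 131 had a lower difference. Eif3j1 (chr2:122028546-122056598, plus strand) had 31.8 RPM and 63.5 RPM (-0.98), which is 2.00-fold on the ratio of RPM, and it counted as at least 2-fold lower under quantile normalization, median-ratio scaling and correction for length.

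Both j genes were thus lower in IV 5% O2, by unequal amounts. Eif3j1 supplied 75.6% of the length-corrected level of the pair in IV 5% O2 and 35.6% in IV 20% O2, and the family sum was 32.0 and 143. Without the length correction Eif3j1 had 88.3% and 57.5% of the reads of the pair, so its share was lower in IV 20% O2 on either scale but only the length-corrected order turned. Much of their exonic sequence is shared. Of windows of 100 bases, 65.6% of those of Eif3j1 and 59.6% of those of Eif3j2 occurred at 2 places in the genome, and the separate values of the pair are therefore uncertain. Eif3j1 in addition shares 19.0% of its exonic bases with an annotated gene on the other strand.

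**Figure D3:**
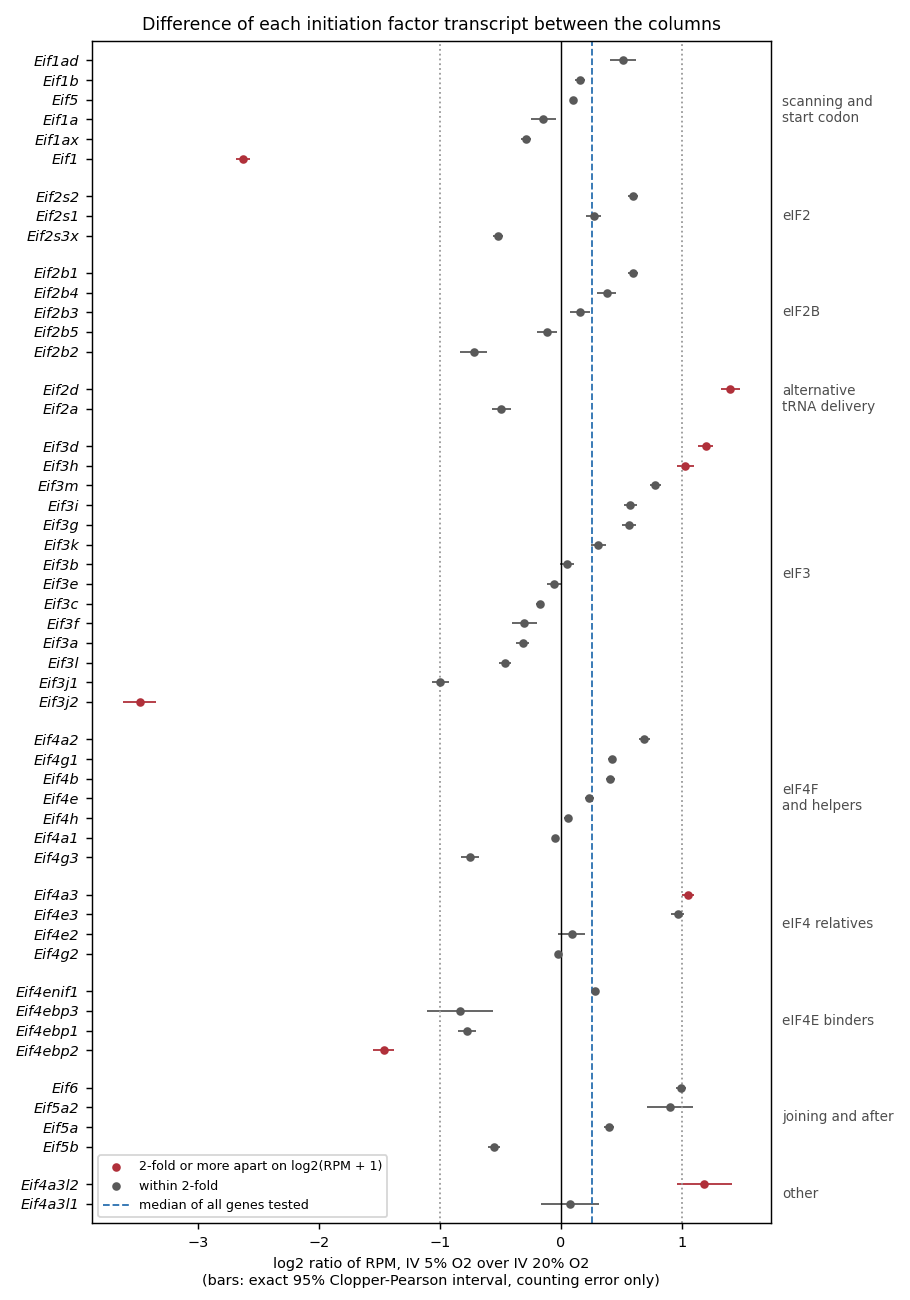
Log2 ratio of RPM, IV 5% O2 over IV 20% O2, for each initiation factor by role, with bars for the exact 95% Clopper-Pearson interval (counting error only), red points for factors at least 2-fold apart on log2(RPM + 1), dotted lines at 2-fold and a dashed line at the median log2(RPM + 1) difference of all genes tested, 0.26. The points of eIF2, eIF2B and eIF4F stay between the dotted lines on either side of 0, while Eif3j2 and Eif1 lie far to the left.

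eIF4F brings the ribosome to the cap. None of the 7 genes for eIF4F and its helpers eIF4B and eIF4H was 2-fold apart on the deposited scale, and their median difference was 0.23, close to that of all genes. The helicase gene Eif4a1 was among the most abundant factors, with 469 RPM and 486 RPM (-0.05), or 479 and 522 on the length-corrected scale. Eif4a2 had 169.6 RPM and 105 RPM (0.68), the largest positive difference of the group. The cap-binding gene Eif4e had 207 RPM and 176 RPM (0.23, turning to -0.09 under median-ratio scaling).

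The scaffold genes of eIF4F lay in opposite directions. Eif4g1 had 287 RPM under 5% O2 and 214 RPM under 20% O2 (0.42), whereas Eif4g3 had 32.3 RPM and 54.5 RPM (-0.74, or -1.05 and hence at least 2-fold lower under median-ratio scaling). The ratio of Eif4g1 to Eif4g3 on the length-corrected scale was 13.5 in IV 5% O2 and 5.95 in IV 20% O2. Of the helicase cofactor genes, Eif4b had 244 RPM and 184 RPM (0.41) and Eif4h 212 RPM and 204 RPM (0.06, turning to -0.26 under median-ratio scaling), both within 2-fold.

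Relatives of the eIF4F subunits include Eif4a3, the helicase of the exon junction complex, which marks spliced mRNA and is not needed for scanning. Of 4 genes 1 was higher. Eif4a3 (chr11:119288363-119300089, minus strand) had 192 RPM under 5% O2 and 93.1 RPM under 20% O2 (25427 and 3804 reads), a difference of 1.04 (interval of the ratio 1.00 to 1.10) or 0.78 once the all-gene median was subtracted, and it fell within 2-fold under quantile normalization, median-ratio scaling and correction for length. Eif4e3, an atypical cap-binding protein, had 142 RPM and 73.0 RPM (0.95). Eif4e2, a cap-binding protein that represses translation, had 22.4 RPM and 21.1 RPM (0.08, turning to -0.22 under median-ratio scaling). Eif4g2, which encodes an eIF4G relative without the eIF4E-binding site, had 576 RPM and 587 RPM (-0.03, or -0.35 under median-ratio scaling).

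The 3 eIF4 families were divided differently in the columns. Eif4a3 made up 39.3% of the length-corrected eIF4A family in IV 5% O2 and 25.0% in IV 20% O2, while Eif4a1 made up 46.9% and 63.8% and Eif4a2 13.8% and 11.2%. Of the family's reads Eif4a3 had 23.2% and 13.6% and Eif4a2 had 20.4% and 15.4%, so the order of these genes in IV 20% O2 depended on the length correction. In the eIF4E family Eif4e3 had 60.1% and 47.4%, Eif4e 36.7% and 48.0%, and Eif4e2 3.17% and 4.59%. Eif4e and Eif4e3 were thus nearly equal in IV 20% O2, and without the length correction Eif4e led in both columns, with 55.7% and 65.2% of the family's reads. In the eIF4G family Eif4g2 led in both columns, with 57.3% and 62.8%, before Eif4g1 with 39.7% and 31.9%. The eIF4E family sum was 417 in IV 5% O2 and 285 in IV 20% O2, that of eIF4A 1022 and 818, and that of eIF4G 438 and 428. Of the exonic bases of Eif4e3, 14.8% lie in an overlapping gene of the same strand, Gm20696.

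**Figure D4:**
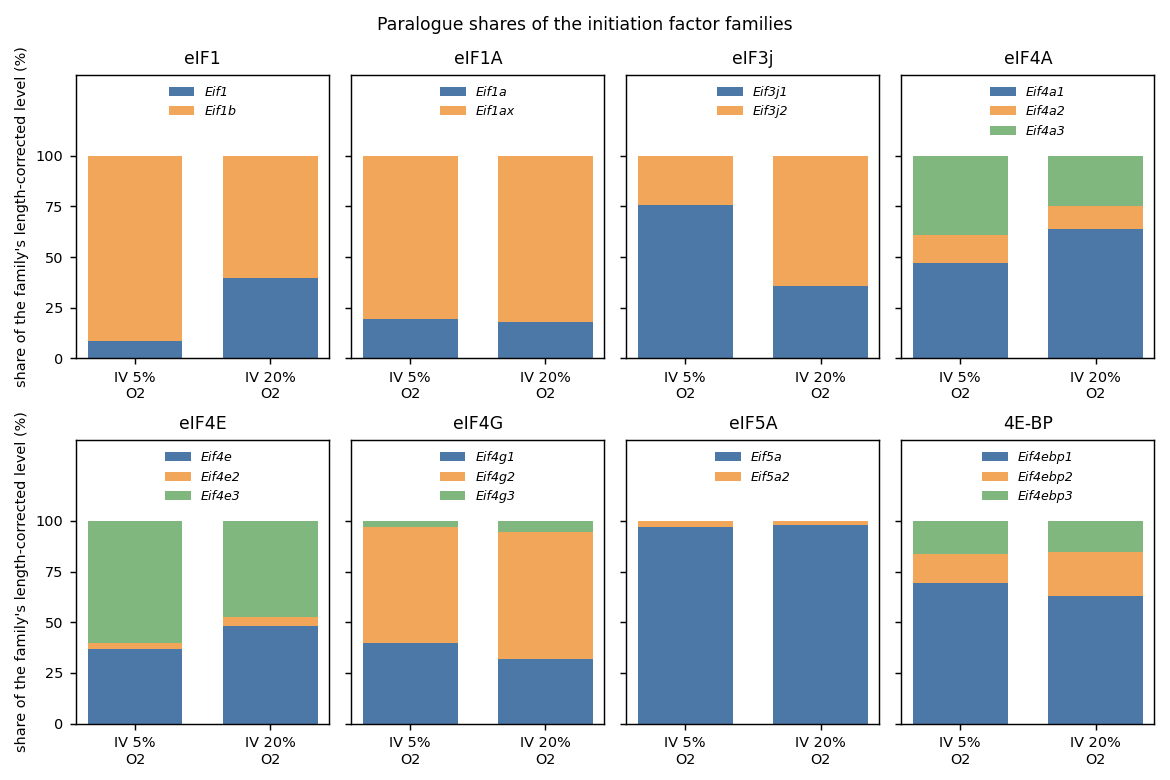
Share of each paralogue in the summed length-corrected level of its family, in %, for IV 5% O2 and IV 20% O2, with 1 stacked bar per column and no error bar because there is 1 value per condition. The split of eIF1 and of eIF3j differs most between the columns, and that of eIF1A and eIF5A least.

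The eIF4E-binding proteins restrain cap-dependent initiation. The 3 4E-BP genes, which mTOR signalling controls through their proteins, were each lower in IV 5% O2 than in IV 20% O2 under every alternative that tested them (Eif4ebp3 did not reach a mean of 5 RPM), and 1 of them was at least 2-fold lower. Eif4ebp2 (chr10:61428491-61452661, minus strand) had 17.0 RPM under 5% O2 and 47.1 RPM under 20% O2 (2252 and 1924 reads). It was 2.76-fold higher in IV 20% O2, a difference of -1.41 (interval of the ratio -1.55 to -1.38) or -1.67 once the all-gene median was subtracted. Eif4ebp1 had 30.7 RPM and 52.7 RPM (-0.76, or -1.07 under median-ratio scaling), and Eif4ebp3 had 2.45 RPM and 4.38 RPM (-0.64, 324 and 179 reads).

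Summed on the length-corrected scale, the 4E-BP genes stood at 89.6 in IV 5% O2 and 177 in IV 20% O2. Eif4ebp1 was the largest part in both, with 69.2% and 63.1%. Against their target, the ratio of Eif4ebp1 to Eif4e was 0.405 in IV 5% O2 and 0.818 in IV 20% O2, and that of Eif4ebp2 to Eif4e was 0.0853 and 0.277. Eif4ebp3 shares 67.3% of its exonic bases with an annotated readthrough gene of the same strand, and its value is therefore uncertain. These are transcript levels and carry no measure of 4E-BP phosphorylation.

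Eif4enif1 encodes 4E-T, which carries eIF4E and is known for its place in the stored mRNPs of oocytes. It behaved differently from the 4E-BP genes, with 442 RPM under 5% O2 and 365 RPM under 20% O2 (0.28, turning to -0.04 under median-ratio scaling). Its ratio to Eif4e on the length-corrected scale was 2.01 in IV 5% O2 and 1.95 in IV 20% O2. Eif4e1b, an oocyte eIF4E outside the rule, had 322 RPM and 256 RPM (0.33), which is 632 and 529 on the length-corrected scale. Both it and Eif4enif1 (308 and 267) stood above Eif4e (153 and 137) on that scale.

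Subunit joining and the steps that follow were represented by 4 genes, none of them 2-fold apart. Eif5b, the GTPase that joins the subunits, was lower in IV 5% O2, at 86.0 RPM against 126 RPM (-0.55). Eif6, which keeps the large subunit from joining too early, was higher, at 260.3 RPM against 131 RPM (0.99, interval of the ratio 0.95 to 1.03). Eif5a, whose protein carries hypusine and acts mainly in elongation and termination, had 186 RPM and 141 RPM (0.40).

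Eif5a2, the other gene for eIF5A, had the lowest mean of all factors on the length-corrected scale, from 10.6 in IV 5% O2 and 6.00 in IV 20% O2. It had 12.1 RPM and 6.48 RPM (0.81, 1597 and 265 reads). Eif5a supplied 97.0% and 97.9% of the eIF5A family. The genes on either side of the joining step, Eif6 and Eif5b, thus lay in opposite directions.

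The remaining genes, Eif4a3l1 and Eif4a3l2, are relatives of Eif4a3 on chromosome 6 with no established role in initiation. Eif4a3l2 (chr6:116551141-116552502, plus strand) had 9.89 RPM under 5% O2 and 4.35 RPM under 20% O2 (1307 and 178 reads), a difference of 1.02 (interval of the ratio 0.96 to 1.42) or 0.77 once the all-gene median was subtracted, and it fell within 2-fold under median-ratio scaling, quantile normalization and a pseudocount of 5 RPM. Eif4a3l1 had 4.80 RPM and 4.57 RPM (0.06, turning to -0.21 under median-ratio scaling). Windows of 100 bases were repeated elsewhere for 29.1% of Eif4a3l2 and 32.4% of Eif4a3l1, and both values are therefore uncertain.

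Several of the factors at least 2-fold apart hold sequence that is repeated elsewhere in the genome. Of the 51 genes 8 had at least 10% of their exonic windows of 100 bases at 2 or more places in the genome, and these held 2 of the 3 lower genes (Eif1 and Eif3j2) and 2 of the 5 higher genes (Eif3h and Eif4a3l2). Eif1 had 12.8% repeated windows of 100 bases and 32.3% of 50 bases, the latter at up to 12 places. The median difference was -0.28 for these 8 genes and 0.15 for the other 43, of which 1 was lower and 3 were higher. Among the 27 genes with no repeated window, 1 was at least 2-fold apart, Eif3d. Eif4ebp2 and Eif2d had 0.18% and 5.23% repeated windows. Repeated windows were counted for the 51 factors only, so no share or median over all genes tested stands beside these counts and medians. How much repeated sequence contributed to the differences was not tested.

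**Figure D5:**
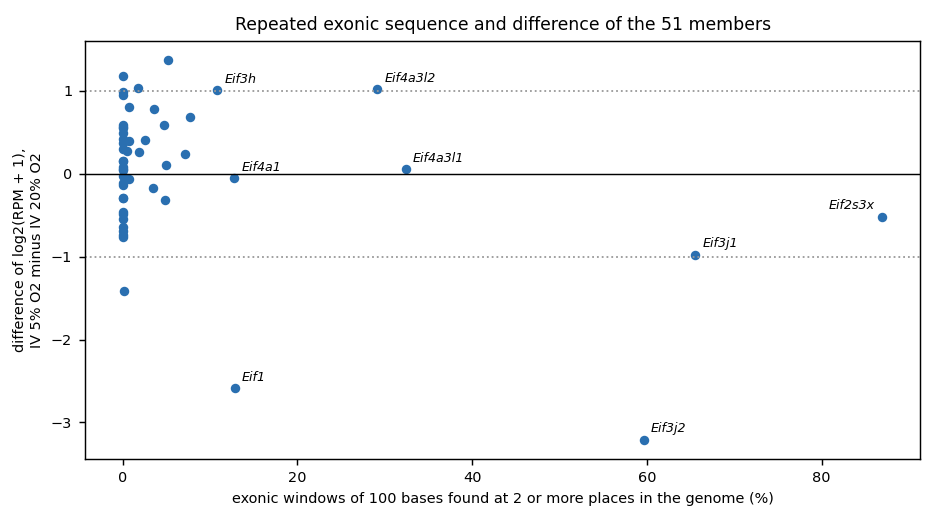
Share of exonic windows of 100 bases found at 2 or more places in the genome, in %, on the x axis and difference of log2(RPM + 1), IV 5% O2 minus IV 20% O2, on the y axis, with 1 point per factor and the 8 factors at 10% or more named. Eif3j2, Eif3j1 and Eif2s3x, the 3 with the highest shares, all lie below 0, and most other factors are at or near 0% repeated windows.

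Across the 51 factors, Spearman's rho was -0.11 between length and difference and 0.26 between level and difference. Over all genes tested with an exonic length it was 0.007 and -0.05. These are descriptions across genes of the same libraries.

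Other genes that act on or with the initiation factors were taken from a list of 45, of which 43 were in the table and 42 were tested. Of these, 7 (16.7%) were at least 2-fold higher in IV 5% O2 and 3 (7.14%) at least 2-fold lower, beside 18.7% and 9.22% of all genes tested, and the median difference was 0.20. Under median-ratio scaling 2 genes, Ppp1r15a and Ybx2, were higher and 5 lower, with a median of -0.11, and under quantile normalization 3, with Akt1s1, were higher and 5 lower. None of the 3 eIF2 kinase genes tested was 2-fold apart. Eif2ak1, the haem-regulated kinase, had 134 RPM and 110.1 RPM (0.29, turning to -0.03 under median-ratio scaling). Eif2ak3, or PERK, the kinase of the endoplasmic reticulum, had 30.8 RPM and 33.5 RPM (-0.12). Eif2ak4, or GCN2, the kinase that senses uncharged tRNA, had 81.3 RPM and 44.7 RPM (0.85). Eif2ak2, or PKR, the kinase that senses double-stranded RNA, did not reach the filter, with 1.40 RPM and 0.27 RPM.

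The genes that direct phosphatase PP1 to eIF2α lay in opposite directions. Ppp1r15a, or GADD34, the stress-induced subunit, had 111 RPM under 5% O2 and 34.6 RPM under 20% O2 (1.66). Ppp1r15b, or CReP, the constitutive subunit, had 59.5 RPM and 162 RPM (-1.43). The stress response transcription factor genes Atf4 (289.9 RPM and 328 RPM, -0.18) and Ddit3 (101 RPM and 80.0 RPM, 0.33), were within 2-fold.

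In the list for mTOR and eIF4 control, 2 of 12 genes were higher and 1 was lower. Akt1s1, or PRAS40, an inhibitor of mTORC1, had 73.2 RPM and 31.3 RPM (1.20). Rps6kb2, an S6 kinase gene, had 10.8 RPM and 4.67 RPM (1.05), and Rps6, a substrate of the S6 kinases, had 28.5 RPM and 79.6 RPM (-1.45). Mtor itself had 98.8 RPM and 131 RPM (-0.40). The other S6 kinase gene, Rps6kb1, had 32.1 RPM and 30.3 RPM (0.08, turning to -0.23 under median-ratio scaling).

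Among 9 genes for poly(A) binding and oocyte mRNA control, 2 were higher and 1 was lower. Ybx2, or MSY2, which packages stored mRNA in germ cells, had 195 RPM and 34.6 RPM (2.46), the largest difference of the whole list. Pabpc1l, the embryonic poly(A)-binding protein that binds eIF4G in oocytes, had 156 RPM and 69.6 RPM (1.15), whereas the somatic Pabpc1 had 27.3 RPM and 55.4 RPM (-0.99). Cpeb1, which controls cytoplasmic polyadenylation, had 233 RPM and 563 RPM (-1.27).

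All 7 genes tested of the elongation list had differences above 0, with a median of 0.70, where 62.6% of all genes tested were above 0. The list includes Eef2k (0.70) and Eef1e1 (0.63), which do not encode elongation factors. Among the 7, Eef1a1 (0.12) and Eef1b2 (0.05) lay below the all-gene median of 0.26, and both turned below 0 under median-ratio scaling (-0.20 and -0.27) and quantile normalization. Eef1b2 also turned below 0 on division by length (-0.02). At least 2-fold higher were 2 of the 7, on the deposited scale but not under either scaling. Eef1g was also within 2-fold with a pseudocount of 5 RPM (0.960) and on division by length (0.999), where Eef1d was not. Eef1d had 217 RPM and 97.8 RPM (1.14), and Eef1g had 56.8 RPM and 26.8 RPM (1.06), both subunits of the exchange complex of eEF1A. The abundant Eef1a1, the carrier of aminoacyl-tRNA, stood at 1229.9 RPM and 1133 RPM. Of the 51 initiation factors, 30 (58.8%) had a difference above 0. Whether genes of the elongation list and initiation factors differ was not tested because no value per library was at hand.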

How the data were processed

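RNA-seq of class IV oocytes (4 of the 24 samples of the series, 2 per condition) was used, and the methylation libraries were not analysed here. The authors used TopHat to align reads to mm10 (TopHat2 2.0.9 in the submitters' processing notes), merged reads over exons with an oocyte annotation in SeqMonk and deposited log2 values, 1 column per condition. Whether a column combines both libraries, and how, is not given in the sources used here. The log2 was undone and whole reads were recovered from the value of 1 read. The deposited value of genes with no read equals 0.9 reads, and 0 RPM was used for them. The table also holds 1 value column that matches none of the samples given here, which was left out.

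Of 16591 rows, the one with the highest mean was kept for each of 18 repeated names, none of them an initiation factor. All 51 factors matched a gene of GENCODE M21 (GRCm38, the build of mm10) by coordinates, from which exonic lengths and overlaps were taken. Upstream sequences came from RefSeq (GRCm38.p6). Windows of 50 or 100 bases, every 10 bases along the exons, were counted in the 22 chromosome sequences.

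Genes whose mean over both columns reached 1 RPM were compared on log2(RPM + 1), and a gene was counted as higher or lower if at least 2-fold apart. Planned tests across libraries could not be run on 1 column per condition. Intervals are exact 95% Clopper-Pearson intervals, and a count of 0 was read as up to 3 reads. Scripts were tested on simulated data. Values are given for every factor, beyond the rule set for named genes (factors at least 2-fold apart, the highest and lowest by length-corrected level, the extremes of each role group, paralogue families, pathway genes at least 2-fold apart and the eIF2 kinases), and the other genes named were chosen after their values were seen. The factors, role groups and lists were chosen with earlier results of these data known. Repeated windows, overlaps, ratios of gene pairs and upstream motifs were also chosen after the data were seen. The alternatives were pseudocounts of 0.1 and 5 RPM, no filter, a minimum mean of 5 RPM, quantile normalization, median-ratio scaling, division by exonic length and sums over the rows of a name. The work was done in Python 3.11.15 with pandas 2.3.3, numpy 2.4.6, numba 0.67.0, scipy 1.17.1 and, for figures, matplotlib 3.10.9.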

Additional observations from a re-analysis of the deposited data

How the results depend on the processing

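No paired analysis was possible because there is 1 deposited column per condition, with no replicate number, and for the same reason no library could be left out. The count of factors at least 2-fold higher in IV 5% O2 (5) was 3 for a pseudocount of 5 RPM, 1 under quantile normalization, 1 under median-ratio scaling and 3 when levels were divided by exonic length, and the count of lower factors (3) was 6 with median-ratio scaling, which added Eif3j1, Eif4ebp1 and Eif4g3, and 4 under quantile normalization and on division by length, which each added Eif3j1. The higher share of these calls, 62.5%, became 20.0% under quantile normalization and 14.3% under median-ratio scaling, where over all genes tested it was 67.0% as deposited, 48.6% and 45.6%. Eif2d stayed at least 2-fold higher, and Eif1, Eif3j2 and Eif4ebp2 at least 2-fold lower, under all alternatives run. The median of the factors (0.10) was -0.0740 after quantile normalization, -0.21 after median-ratio scaling, 0.0308 on division by length and 0.15 for a minimum mean of 5 RPM. Taken from the median gene (-0.16), it became -0.0850 for a pseudocount of 5 RPM and -0.0765 for a minimum mean of 5 RPM. Differences of single factors reversed with median-ratio scaling for Eif1b (-0.16), Eif2b3 (-0.16), Eif2s1 (-0.0483), Eif3b (-0.27), Eif3k (-0.0115), Eif4a3l1 (-0.21), Eif4e (-0.0855), Eif4e2 (-0.22), Eif4enif1 (-0.0419), Eif4h (-0.26) and Eif5 (-0.22). With quantile normalization they reversed for Eif1b (-0.0648), Eif2b3 (-0.0209), Eif3b (-0.16), Eif4a3l1 (-0.15), Eif4e (-0.0309), Eif4e2 (-0.0740), Eif4h (-0.20) and Eif5 (-0.14), and with division by length for Eif3b (-0.0238), Eif4a3l1 (-0.000631) and Eif4h (-0.0151). Both scalings centre the columns on each other, which took the all-gene median from 0.26 to -0.04 (median ratio) and 0.06 (quantiles), and the cause of that offset was not tested. Without reversing, 39 single factors moved beyond counting error with median-ratio scaling, 40 with quantile normalization, 32 on division by length, 9 with a pseudocount of 5 RPM and 1 with 0.1 RPM. The filters and row sums cannot alter the difference of a single factor. For the genes that act with the factors, the count of higher genes (7) was 3 after quantile normalization and 2 after median-ratio scaling. It was 5 with a pseudocount of 5 RPM and on division by length, each time by losing Eef1g and Rps6kb2. The count of lower genes (3) was 5 under both scalings, on division by length and with a pseudocount of 0.1 RPM. Each time Mcts1 and Pabpc1 were added. The median of the genes that act with the factors (0.20) was 0.0135 after quantile normalization, -0.11 after scaling by the median ratio and 0.13 on division by length. Depth limits the lowest factors, such as Eif4a3l2 and Eif4ebp3, with 178 and 179 reads in IV 20% O2.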
